A study of Mus musculus with 9 samples.

Results

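Motile cilium axoneme genes were followed by family through cultured mouse embryonic lung. The members were all genes whose symbol began with Dnah, Dnai, Dnal, Dnaaf, Cfap, Rsph, Tekt or Drc, which gave 72 of the 55286 genes in the tables. They comprised 16 Dnah genes, 2 Dnai genes (listed as Dnaic1 and Dnaic2), 3 Dnal, 4 Dnaaf, 31 Cfap, 8 Rsph, 5 Tekt and 3 Drc genes. The rule used names only, and 1 of the Dnah names, Dnah2os, is a transcript on the strand opposite Dnah2. Cfap97d1 had no count in any library, which leaves 71 members with data.

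The RNA came from 9 mouse lung samples in 3 groups of 3. The first group was fresh lung of wild-type embryos at E11.5, an embryonic day early in airway branching, and was not cultured. The second was wild-type E11.5 lung kept as an explant for 72 h under control conditions. The third was the same kind of explant kept for 72 h with EPZ5676, a small molecule that inhibits DOT1L, the methyltransferase of lysine 79 of histone H3. The dose, the control medium and the number of embryos behind a library are not given in the sources used here. The p-values therefore reflect variation among these samples, some of which may be technical. Libraries are named below by group and number. Levels are in TPM, an abundance corrected for depth and transcript length. TPM values can therefore be compared between genes.

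A motile cilium is a moving cell projection built on an axoneme, a ring of microtubule doublets around a central pair. Outer and inner dynein arms drive the sliding of the doublets, radial spokes and the nexin-dynein regulatory complex control it, and tektins and many Cfap proteins line or bind the microtubules. In the airway these structures are made by multiciliated epithelial cells, which clear mucus, and closely related structures are made by sperm. In whole lung RNA, more cells of a type and more RNA per cell cannot be told apart.

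The libraries differed in ways the groups do not explain. Totals ran from 6509563 to 9861452 counts. Control 1 held a summed 221 TPM of 7 liver markers and 104 TPM of 6 heart muscle markers, against at most 24 and 72.4 TPM in any other library. The summed level of 11 lung epithelium markers was 331 to 354 TPM in fresh lung, 1056, 1015 and 622 TPM in Control 1 to 3, and 1178, 933 and 1301 TPM in EPZ5676 1 to 3. Xist, the transcript of the inactive X chromosome of females, was high in Control 1 (281 TPM), Control 2 (278 TPM) and EPZ5676 2 (210 TPM), and under 1 TPM in Control 3, EPZ5676 1 and EPZ5676 3. The part of these differences in the results below was not tested.

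Most axoneme genes were low in fresh lung and in control explants and higher in EPZ5676 explants. TPM in all 3 EPZ5676 libraries lay above all 3 controls for 32 of 71 members (45.1%), where 4.44% of the 30727 genes with any count did so. No member had all EPZ5676 libraries below all controls, against 2.34% of all genes. By family, the groups were separated in this way for 5 of 16 Dnah genes, 2 of 5 Dnai and Dnal genes and 2 of 4 Dnaaf genes. So were 14 of 30 Cfap, 4 of 8 Rsph, 2 of 5 Tekt and 3 of 3 Drc genes. Some of these separations rest on few counts or are absent in counts. Cfap97d2 had 1 count in EPZ5676 2 and 2 in Control 1, and Rsph14 had 1 count in EPZ5676 2. Cfap43 had 14 counts in EPZ5676 2 and 15, 14 and 11 in controls. In the annotation 34 members share exon sequence with another gene, and no source used here says whether counting used the strand, so their values are uncertain to that extent. Among them, Dnali1 overlaps Gnl2 (60.2 to 91.2 TPM), Dnah17 overlaps Pgs1 (14.5 to 26.7 TPM), Dnah3 overlaps Lyrm1 (2.63 to 7.97 TPM) and Dnaaf1 overlaps Taf1c (2.28 to 7.24 TPM), each on the other strand. Dnaaf3 overlaps Tnni3 (0.66 to 7.63 TPM) and Dnah2 overlaps the antisense gene Dnah2os (0 to 1.32 TPM).

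The size of the difference from control was large, and so was the spread within the treated group. Summed over the 63 members with a mean under 10 TPM, the level was 81.2 ± 4.12 TPM (SD, n = 3) in fresh lung, 72.0 ± 4.85 TPM in controls and 203 ± 130 TPM with EPZ5676. The EPZ5676 libraries held 160, 99.7 and 349 TPM and the controls 77.5, 68.4 and 70.1 TPM, so the groups did not overlap although the treated libraries differed severalfold among themselves. The other 9 members, with a mean of at least 10 TPM, summed to 266 ± 12.2, 248 ± 26.6 and 303 ± 37.7 TPM in the same order of groups.

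With 3 libraries a group, no member passed the adjusted threshold of 0.05 in edgeR between EPZ5676 and control explants, and no gene of the 15158 tested did (0.0% called in either direction). The lowest adjusted p was 0.131. At an unadjusted threshold of 0.05, edgeR had 24 of the 38 tested members higher and 0 lower, against 4.14% of all genes higher and 2.8% lower. DESeq2, an alternative test, called 9 of 38 members higher and 0 lower after adjustment, where it called 0.442% of all genes higher and 0.106% lower. These were Cfap126, Cfap206, Cfap44, Cfap45, Dnah10, Dnah6, Drc3, Rsph1 and Rsph4a. Only 38 members passed the filter on low counts, and 26 passed it when the fresh and control libraries were used alone, so some were tested only because they were high with EPZ5676, and the counts among tested members are given as a description.

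**Figure D1:**
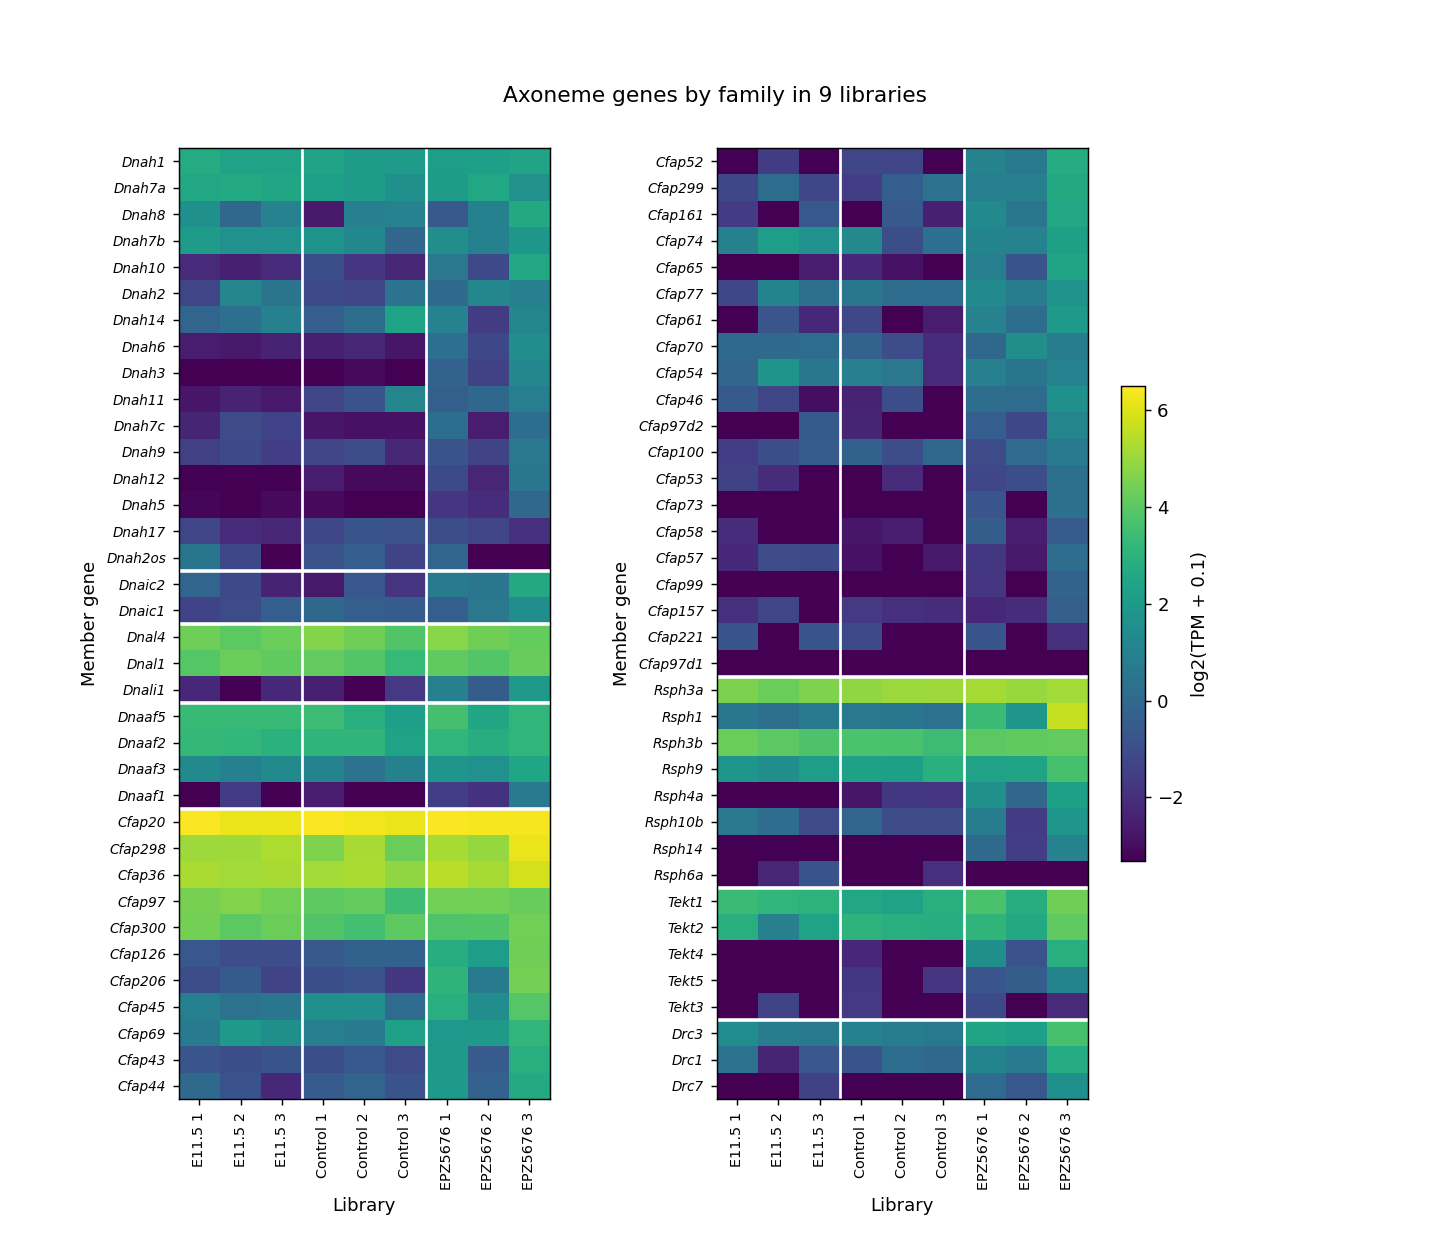
Level of each of the 72 members in each of the 9 libraries, as log2(TPM + 0.1) in color, with rows grouped by family (white lines) and columns by group. The EPZ5676 columns, above all EPZ5676 3, are lighter than the control and fresh columns for most rows, while the rows at the top of the Dnal, Cfap and Rsph blocks are light in every library.

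The promoters of the members were searched for sites of RFX and forkhead factors, the classes of transcription factor best known for driving ciliary genes. RefSeq promoter windows of 300 bases (GRCm38.p6, 250 before the start site and 50 after it) were at hand for 59 of the 72 members. The full X-box bound by RFX factors was searched in a strict form, GTTNCC, a spacer of 0 to 3 bases and GGNAAC. This form was found in 1 member, Cfap298 (1.69% of members, against 0.936% of all 27025 genes with a window). Looser forms of the full X-box were not searched, so a half-site given below may lie within one. Its half-site GTTGCC, on either strand and including copies inside a full X-box, was searched after the full form had been found so seldom. It stood in the windows of 22 of 59 members (37.3%), against 14.1% of all genes. The forkhead letters TGTTTAC, on either strand, were in 4 members (6.78%, against 4.05%). The GC content of member windows was 55.2%, close to the 53.8% of all windows.
The sites below are shown because they are the letters these genes share. They lie upstream of the RefSeq start site, are written 5′ to 3′ on the strand of the gene, and have the X-box or half-site in capitals.
Cfap298, full X-box (chr16:90934897-90934925, minus strand): tttgactGTTGCCCCTGGCAACagccact
Cfap161 (chr7:83794866-83794885, minus strand): tcgtcatGGCAACgaagcac
Cfap44 (chr16:44394773-44394792, plus strand): ttgctatGGCAACcgcagta
Dnaic2 (chr11:114727386-114727405, plus strand): gttgctaGGCAACtggtaaa
Drc1 (chr5:30281375-30281392, plus strand): ttcccttGGCAACggctt
Tekt1 (chr11:72361885-72361904, minus strand): ccgtccgGTTGCCatagaga
Tekt2 (chr4:126325698-126325717, minus strand): gttgctcGGCAACcagagcc
The half-site was in 8 of the 24 members with a window whose EPZ5676 libraries lay above all controls, and in 14 of the 35 members whose groups overlapped. Among members with a window, it was therefore not more frequent in those whose groups were separated. A match is a run of letters and no evidence of binding.

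The outer arm heavy chains of the airway type, Dnah5, Dnah9 and Dnah11, are the motors of ciliary beat and are mutated in primary ciliary dyskinesia. Dnah5 was at 0.01, 0 and 0.02 TPM in fresh lung, 0.02, 0 and 0 TPM in controls and 0.19, 0.14 and 0.86 TPM with EPZ5676. All treated libraries were above all others, but none reached 1 TPM. Dnah9 was at 0.31, 0.40 and 0.11 TPM in controls and 0.49, 0.30 and 1.41 TPM with EPZ5676, so EPZ5676 2 lay among the controls. Its log2 fold change from counts was 2.35 ± 0.58 (SE, edgeR adjusted p = 0.306).

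Dnah11 had another pattern. It was at 0.05, 0.09 and 0.06 TPM in fresh lung, 0.31, 0.48 and 2.10 TPM in controls and 0.69, 0.87 and 1.73 TPM with EPZ5676. Both cultured groups lay above fresh lung and overlapped each other, and Control 3 was the highest of the 9 libraries. Dnah11 rose from fresh lung to control explants by 2.96 ± 0.89 on the log2 scale (SE, edgeR adjusted p = 0.0249). That call was lost without any 1 of the fresh libraries (2.80 to 3.05) and without Control 3 (1.59). Its exons overlap those of Cdca7l on the other strand, which was at 30.3 to 47.2 TPM.

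For the sperm type outer arm heavy chains, Dnah8 and Dnah17, the explant groups overlapped. Dnah8 was at 2.96, 0.87 and 1.94 TPM in fresh lung, 0.06, 1.82 and 1.92 TPM in controls and 0.57, 1.90 and 6.19 TPM with EPZ5676. Dnah17 was at 0.31, 0.13 and 0.11 TPM in fresh lung, 0.33, 0.49 and 0.44 TPM in controls and 0.40, 0.31 and 0.16 TPM with EPZ5676, a log2 fold change of -0.47 ± 0.47 (SE, edgeR adjusted p = 0.907). In TPM all 3 controls lay above all fresh libraries for Dnah17. Its counts overlapped, at 20, 8 and 7 in fresh lung and 30, 9 and 20 in controls. The log2 fold change from fresh lung to controls was 0.50 ± 0.475 (SE, edgeR adjusted p = 0.438). The 8 spermatid markers, among them the protamines, summed to at most 0.57 TPM in any library and were all at 0 in 7 of 9 libraries.

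Among the inner arm heavy chains, Dnah6 (chr6:73017606-73221651, minus strand, GRCm38) was at 0.07, 0.06 and 0.09 TPM in fresh lung, 0.08, 0.11 and 0.05 TPM in controls and 1.10, 0.34 and 2.70 TPM with EPZ5676. The fresh and control values were alike and every treated library lay above them. Its log2 fold change against control was 4.55 ± 0.74 (SE, edgeR adjusted p = 0.131; DESeq2 adjusted p = 8.37e-06).

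Dnah10 was at 0.42, 0.19 and 0.11 TPM in controls and 1.38, 0.35 and 5.83 TPM with EPZ5676. EPZ5676 2 lay below Control 1, and the log2 fold change was 3.88 ± 0.81 (SE, edgeR adjusted p = 0.253; DESeq2 adjusted p = 0.000448). Dnah3 had no count in fresh lung and was at 0, 0.02 and 0 TPM in controls and 0.75, 0.28 and 2.32 TPM with EPZ5676. Dnah12 had no count in fresh lung either and was at 0.36, 0.11 and 1.36 TPM with EPZ5676. Against a floor of 3 counts over the fresh group, the EPZ5676 level was 36.2-fold higher for Dnah3 and 31.7-fold higher for Dnah12.

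Other inner arm chains were already present in fresh lung. Dnah1 was at 4.92 to 6.55 TPM in fresh lung, 4.04 to 5.18 TPM in controls and 4.37 to 5.20 TPM with EPZ5676, a log2 fold change of 0.04 ± 0.21 (SE, edgeR adjusted p = 0.98) between explant groups. Dnah7a, Dnah7b and Dnah7c are near-identical copies whose reads can be divided in error. Dnah7a was at 2.93 to 4.51 TPM in controls and 3.06 to 5.68 TPM with EPZ5676, and Dnah7b at 0.85 to 3.20 and 1.89 to 3.44 TPM. Dnah7c was at 0.04 to 0.05 TPM in controls and 1.07, 0.07 and 1.07 TPM with EPZ5676, without overlap. In EPZ5676 2 this rests on few counts, 4.21 against 3.54, 2.12 and 2.08 in controls. The log2 fold change of Dnah7a was 0.91 ± 0.35 (SE, edgeR adjusted p = 0.634), and its explant groups overlapped. Dnah2 was at 0.31, 2.09 and 1.28 TPM in fresh lung, 0.36, 0.31 and 1.24 TPM in controls and 0.95, 2.26 and 1.84 TPM with EPZ5676, a log2 fold change of 1.40 ± 0.49 (SE, edgeR adjusted p = 0.559) with overlap of the groups. Dnah14 was at 4.99 TPM in Control 3 and at 0.23 to 2.18 TPM in all other explants. It shares exon sequence with Lbr on the other strand, which was at 41.3 to 89.5 TPM. Dnah14 was chosen for mention after its values were seen.

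The intermediate and light chains divided in a like way. Dnaic2, an intermediate chain of the outer arm, was at 0.81, 0.36 and 0.09 TPM in fresh lung, 0.06, 0.53 and 0.18 TPM in controls and 1.52, 1.33 and 6.04 TPM with EPZ5676. Dnali1, a light intermediate chain of the inner arm, was at 0.08, 0 and 0.21 TPM in controls and 1.82, 0.65 and 3.90 TPM with EPZ5676. For both genes all treated libraries lay above the 6 others. Dnaic1, the partner of Dnaic2, was at 0.89, 0.69 and 0.62 TPM in controls and 0.66, 1.40 and 2.73 TPM with EPZ5676, with EPZ5676 1 among the controls.

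The light chains Dnal1 and Dnal4 were present in every group. Dnal1 was at 17.1 ± 2.03, 13.8 ± 4.02 and 16.6 ± 1.92 TPM (SD, n = 3) in fresh, control and EPZ5676 lung. Dnal4 was at 18.5 ± 1.90, 20.2 ± 5.91 and 21.8 ± 4.28 TPM. Between explant groups both differed by less than the spread, with log2 fold changes of 0.32 ± 0.17 and 0.11 ± 0.17 (SE, edgeR adjusted p = 0.766 and 0.935).

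The Dnaaf proteins preassemble dynein arms in the cytoplasm. Dnaaf1 was at 0.07, 0 and 0 TPM in controls and 0.25, 0.17 and 1.60 TPM with EPZ5676. Dnaaf3 was at 1.98, 1.22 and 1.89 TPM in controls and 3.39, 2.99 and 5.49 TPM with EPZ5676. Both were separated between the explant groups, and Dnaaf3 had a log2 fold change of 1.17 ± 0.34 (SE, edgeR adjusted p = 0.446). Dnaaf2 and Dnaaf5 were at 7.35 ± 2.01 and 7.33 ± 2.97 TPM (SD, n = 3) in controls and 8.14 ± 1.06 and 8.82 ± 3.39 TPM with EPZ5676, and their groups overlapped. Dnaaf2 shares exon sequence with 2 other protein-coding models on its own strand.

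The radial spoke gene Rsph1 had the largest gain in TPM of all low members. Rsph1 (ENSMUSG00000024033, chr17:31255019-31277383, minus strand, GRCm38) encodes a spoke head protein. It was at 1.33, 1.14 and 1.58 TPM in fresh lung, 1.44, 1.34 and 1.20 TPM in controls and 10.2, 3.53 and 50.1 TPM with EPZ5676. The 6 untreated libraries lay within a narrow range and every treated library was above it. The log2 fold change against control was 3.94 ± 0.90 (SE, edgeR adjusted p = 0.306; DESeq2 adjusted p = 0.000353), and 2.28 without EPZ5676 3.

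Rsph4a (chr10:33905111-33916021, plus strand), another spoke head gene, had no count in fresh lung. It was at 0.05, 0.20 and 0.18 TPM in controls and 2.97, 0.85 and 4.64 TPM with EPZ5676, so that the 3 groups did not overlap. The level with EPZ5676 was 43.8-fold above a floor of 3 counts over the fresh group. The log2 fold change against control was 4.29 ± 0.77 (SE, edgeR adjusted p = 0.197; DESeq2 adjusted p = 0.000886). Its sperm type relative Rsph6a was listed at 0 TPM in all EPZ5676 libraries and at up to 0.49 TPM in fresh lung.

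The spoke stalk genes Rsph3a and Rsph3b, near-identical copies, had the highest means of the family over the 9 libraries. With EPZ5676 the mean of Rsph1, 21.3 TPM, was above that of Rsph3b, 17.0 TPM. Rsph3a was at 22.2 ± 2.54 TPM (SD, n = 3) in fresh lung, 31.4 ± 2.36 TPM in controls and 34.1 ± 2.42 TPM with EPZ5676, and rose from fresh lung to control by 0.76 ± 0.20 on the log2 scale (SE, edgeR adjusted p = 0.0123), a call lost without E11.5 2 (0.64). Rsph3b was at 13.2, 12.9 and 10.6 TPM in controls and 16.4, 17.3 and 17.4 TPM with EPZ5676, a small but complete separation with a log2 fold change of 0.39 ± 0.16 (SE, edgeR adjusted p = 0.659). Rsph9, of the spoke head, was at 4.77, 4.57 and 7.45 TPM in controls and 5.01, 5.22 and 12.3 TPM with EPZ5676, so its groups overlapped. Rsph14 had no count in any untreated library and was at 0.94, 0.24 and 1.95 TPM with EPZ5676. That was 4.91-fold above a floor of 3 counts over the controls, and rests on 4, 1 and 9 counts.

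All 3 Drc genes, which encode parts of the nexin-dynein regulatory complex, had every EPZ5676 library above every control. Drc1 was at 0.49, 1.02 and 0.91 TPM in controls and 2.03, 1.56 and 6.64 TPM with EPZ5676. Drc3 was at 1.90, 1.68 and 1.45 TPM in controls and 5.20, 4.53 and 12.5 TPM with EPZ5676. Drc7 had no count in controls and was at 0.98, 0.53 and 2.94 TPM with EPZ5676. That was 8.77-fold above a floor of 3 counts over the controls. The log2 fold changes of Drc1 and Drc3 were 2.39 ± 0.54 and 2.02 ± 0.44 (SE, edgeR adjusted p = 0.253 for both), and DESeq2 called Drc3 (adjusted p = 0.0213).

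Tektins are filament proteins of the doublet wall. Tekt1 was at 10.2, 8.75 and 8.08 TPM in fresh lung, 5.84, 5.0 and 7.17 TPM in controls and 12.7, 6.90 and 20.5 TPM with EPZ5676. Tekt2 was at 7.33, 1.84 and 4.96 TPM in fresh lung, 8.0, 7.24 and 6.78 TPM in controls and 8.55, 5.91 and 17.1 TPM with EPZ5676. Both were thus present before culture, and for both EPZ5676 2 was not above all controls. Tekt4 had no count in fresh lung and was at 0.12, 0 and 0 TPM in controls and 2.89, 0.47 and 7.17 TPM with EPZ5676. Tekt5 was at 0.20, 0 and 0.18 TPM in controls and 0.51, 0.65 and 2.08 TPM with EPZ5676, and Tekt3 stayed under 1 TPM in all libraries. Tekt4 and Tekt5 are best known from sperm, yet their groups were separated where those of Dnah8, Dnah17 and Rsph6a were not.

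The Cfap family, a naming group of cilia and flagella associated proteins with varied functions, held 14 of the 32 separated genes. Cfap126 (chr1:171113918-171126967, plus strand, GRCm38), also called Flattop and known for basal body docking, was at 0.53, 0.40 and 0.40 TPM in fresh lung, 0.57, 0.73 and 0.72 TPM in controls and 6.92, 4.41 and 20.6 TPM with EPZ5676. All treated libraries were several times above all others. The log2 fold change was 4.34 ± 0.69 (SE, edgeR adjusted p = 0.131; DESeq2 adjusted p = 0.000636).

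Cfap206 (chr4:34688559-34730206, minus strand), a protein at the base of the radial spokes, was at 0.42, 0.46 and 0.20 TPM in controls and 8.26, 1.62 and 21.8 TPM with EPZ5676. Its log2 fold change of 4.91 ± 0.85 was the highest among tested members (SE, edgeR adjusted p = 0.144; DESeq2 adjusted p = 2.44e-05). Cfap43, a doublet protein, was at 0.42, 0.55 and 0.39 TPM in controls and 3.91, 0.60 and 7.21 TPM with EPZ5676, and shares exon sequence with Itprip on its own strand. Its partner Cfap44 was at 0.60, 0.83 and 0.47 TPM in controls and 3.74, 0.76 and 6.40 TPM with EPZ5676. For this pair EPZ5676 2 stood at or beside the control level while the other treated libraries were far above it.

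The inner doublet proteins Cfap45, Cfap52 and Cfap53 were not alike in level. Cfap45 was at 2.94, 2.97 and 0.97 TPM in controls and 7.06, 2.69 and 14.8 TPM with EPZ5676. Cfap52 was at 0.33, 0.32 and 0 TPM in controls and 2.02, 1.48 and 6.67 TPM with EPZ5676. Cfap53 was at 0, 0.13 and 0 TPM in controls and 0.33, 0.40 and 1.10 TPM with EPZ5676. The groups of Cfap52 and Cfap53 were separated, and those of Cfap45 overlapped through EPZ5676 2.

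The most abundant Cfap genes differed little. Cfap20 was at 78.0 ± 7.27 TPM (SD, n = 3) in fresh lung, 80.0 ± 7.12 TPM in controls and 83.7 ± 2.15 TPM with EPZ5676, a log2 fold change of 0.06 ± 0.08 between explants (SE, edgeR adjusted p = 0.926). Cfap36 was at 34.2 ± 4.97 TPM in controls and 46.2 ± 10.4 TPM with EPZ5676. Cfap298, the carrier of the full X-box shown above, was at 24.3, 37.5 and 19.3 TPM in controls and 37.0, 30.4 and 73.6 TPM with EPZ5676, and its groups overlapped. Cfap97 was at 16.6, 17.9 and 10.7 TPM in controls and 20.9, 21.2 and 18.5 TPM with EPZ5676, a separation of small size.

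**Figure D2:**
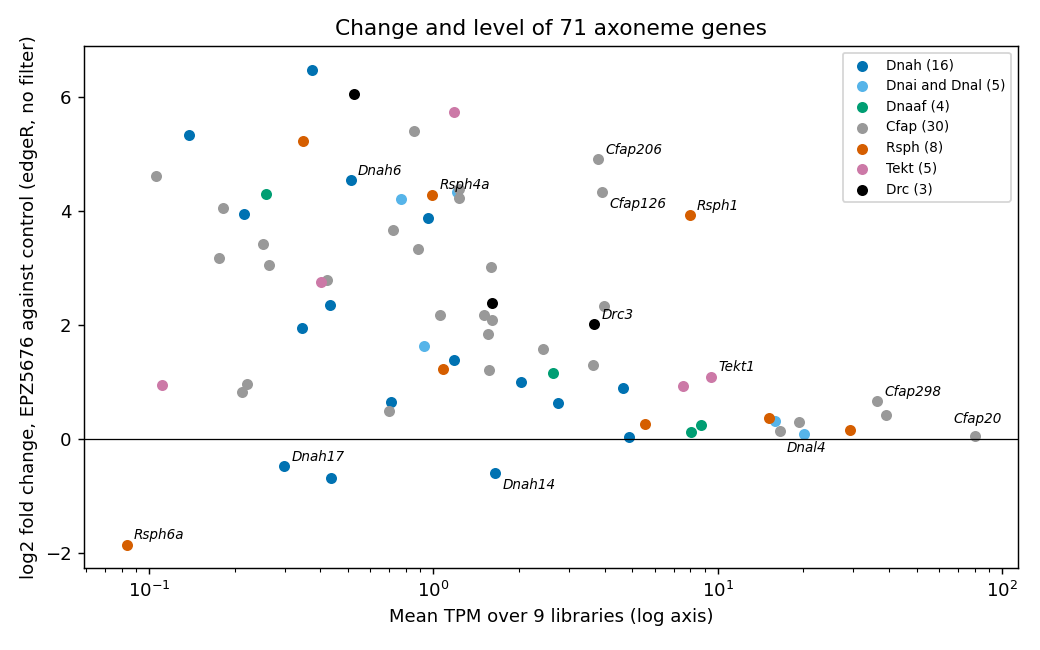
Log2 fold change of EPZ5676 against control (edgeR without a filter on low counts, vertical axis) against mean TPM over the 9 libraries (log horizontal axis) for the 71 members with a count, colored by family. Members with a mean of 10 TPM or more lie between 0 and 1, whereas those with lower means reach above 4, and 67 of 71 points lie above 0.

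Without the filter, the median log2 fold change against control was 1.95 over 71 members and 0.0 over all 30385 genes. By family it was 1.20 for Dnah, 1.63 for Dnai with Dnal, 0.70 for Dnaaf, 2.26 for Cfap, 0.80 for Rsph, 1.09 for Tekt and 2.38 for Drc. The low medians of Dnaaf and Rsph come with members present at several TPM or more before treatment, such as Dnaaf2, Dnaaf5 and Rsph3a. Fitted values of genes with no count in a group depend on the prior count, so these medians order the families only roughly.

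The gain was spread over many genes. Between control and EPZ5676 means, 58 of the 63 low members gained and 4 lost, with a net gain of 131 TPM. Rsph1 made up 15.2% of it, Cfap206 7.79%, Cfap126 7.61% and Tekt1 5.63%, and the 8 genes with the largest gains together made up 50.4%.

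The treated libraries kept one order through most members. EPZ5676 3 was the highest of all 9 libraries for 47 of 71 members (66.2%), against 9.59% of all genes with a count. The order EPZ5676 3 above 1 above 2 was seen for 42 members (59.2%), against 12.0% of all genes. Taken singly, EPZ5676 1 lay above all controls for 51 members (23.8% of all genes), EPZ5676 2 for 36 (19.3%) and EPZ5676 3 for 60 (21.0%). The median ratio to the control mean over 58 low members was 3.11 in EPZ5676 1, 1.68 in EPZ5676 2 and 6.99 in EPZ5676 3, and 1.32, 1.05 and 1.32 over the 9 high members. EPZ5676 2 is also the treated library with a high Xist level, whose part in this order was not tested.

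**Figure D3:**
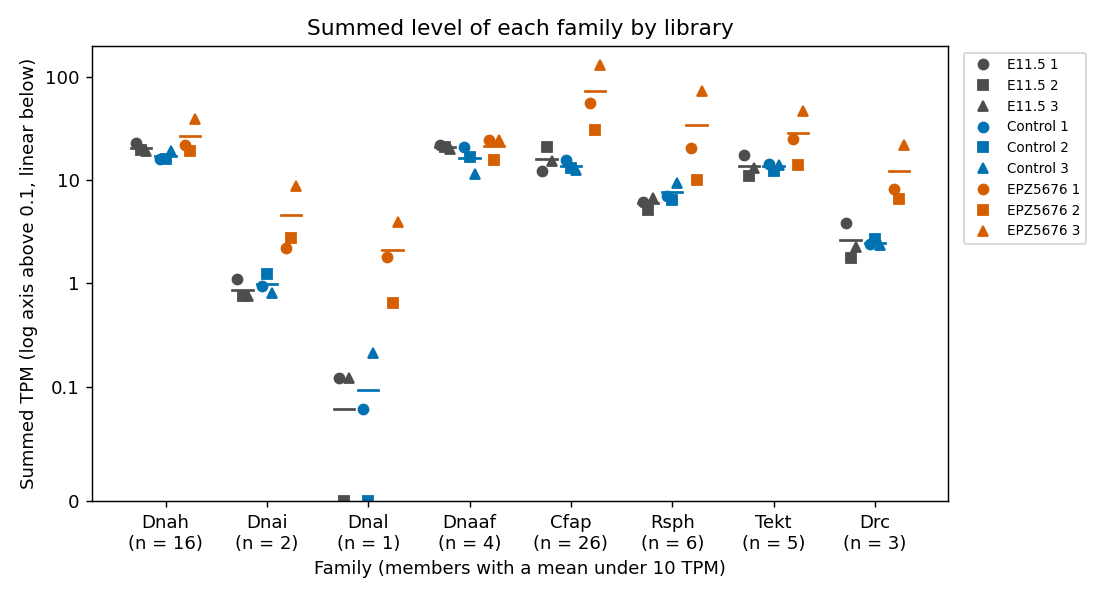
Summed TPM of the members with a mean under 10 TPM in each family (log axis above 0.1, linear below), 1 point per library and a horizontal line at the mean of each group. EPZ5676 3 (triangle) is the highest treated library in 7 of 8 families and stands beside EPZ5676 1 in the Dnaaf family. EPZ5676 2 lies among the controls in the Dnah, Dnaaf and Tekt families, so their explant groups overlap.

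Leaving out single libraries changed the calls. Without EPZ5676 2, edgeR called 10 members higher of 51 tested (0.167% of all genes) and 0 lower (0.0%), and without EPZ5676 3 it called 0. The filter was applied anew in each such fit, so members low in the library left out could enter. Cfap65 and Dnah3, called without EPZ5676 2, were not tested in the full fit. EPZ5676 2 was also the treated library with the lowest axoneme sum, so these counts are given as a description. Without the filter on low counts edgeR called 11 of 71 members higher (0.221%) and 0 lower (0.0296%). The median over tested members fell from 0.98 to 0.54 without EPZ5676 3, and remained above 0 in every fit that left out 1 library.

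Few members moved from fresh lung to control explants, a comparison that joins culture to 72 h of added age. Many members had few counts in both groups, which limits the calls. Between control explants and fresh lung, edgeR called 2 of 38 members higher (21.1% of all genes) and 3 lower (16.6%), with a median log2 fold change of 0.02 over members and 0.02 over all genes. The higher genes were Dnah11 and Rsph3a. The lower ones were Cfap97, by 0.44 ± 0.13 below fresh lung on the log2 scale (SE, edgeR adjusted p = 0.0229), Dnah7b (adjusted p = 0.00368) and Cfap74 (adjusted p = 0.0484). Cfap74 was at 1.82, 4.46 and 3.04 TPM in fresh lung and 2.34, 0.41 and 1.10 TPM in controls, so its TPM overlapped. The TPM of Dnah7b overlapped too, at 4.12, 3.01 and 2.99 in fresh lung and 3.20, 2.31 and 0.85 in controls. Its reads can be divided in error among the near-identical Dnah7 copies. The call of Cfap97 was lost without any 1 of the fresh libraries or Control 3 (-0.46 to -0.31), and that of Cfap74 without E11.5 2, E11.5 3, Control 2 or Control 3 (-1.56 to -1.21). Counted by TPM without overlap, 7 members were higher in controls (11.3% of all genes) and 7 lower (15.2%). DESeq2 called 3 members higher (20.2%) and 3 lower (17.1%), and edgeR without a filter 1 higher (10.3%) and 3 lower (7.24%).

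EPZ5676 explants against fresh lung shared the EPZ5676 and fresh libraries with the comparisons above, so the values are only set beside them. In edgeR 17 of 38 members were called higher (22.1% of all genes) and 0 lower (17.9%). They were 7 Cfap genes (Cfap126, Cfap206, Cfap43, Cfap44, Cfap45, Cfap54 and Cfap69), 4 Dnah genes (Dnah6, Dnah9, Dnah10 and Dnah11), 3 Rsph genes (Rsph1, Rsph3a and Rsph4a), Tekt2, Drc1 and Drc3. Cfap54 was higher in counts but not in mean TPM. It was at 0.84, 3.28 and 1.36 TPM in fresh lung and 1.84, 1.30 and 1.97 TPM with EPZ5676. DESeq2 called 18 higher (21.1%) and 1 lower (18.3%), and edgeR without a filter 35 of 71 higher (11.1%) and 1 lower (7.97%). With EPZ5676 2 left out and the filter applied anew, edgeR called 30 of 51 higher (19.7%) and 0 lower (14.7%). Some members passed the filter on low counts only because they were high with EPZ5676. The counts among members tested after that filter are therefore given as a description. By TPM without overlap 30 of 71 members were higher (14.9%) and 1, Cfap97, lower (16.3%). Cfap126 rose by 4.69 ± 0.74 and Cfap206 by 5.10 ± 0.89 on the log2 scale (SE, edgeR adjusted p = 0.000663 and 0.00149). Rsph1 rose by 4.02 ± 0.93 (SE, edgeR adjusted p = 0.00804). Chi-square per degree of freedom between libraries of 1 group was 2.69 to 6.91 in fresh lung and 8.91 to 31.1 in the explant groups. The calls of Cfap54, Cfap69 and Tekt2 were lost without EPZ5676 3 (0.82, 0.91 and 1.15), that of Cfap54 also without any 1 of the fresh libraries and that of Cfap69 also without E11.5 3. Calls numbered 14 without EPZ5676 3 and 27 without E11.5 1. In these fits the filter was applied anew and the share of all genes was not computed, so the 2 counts are given as a description. The comparison of EPZ5676 explants with fresh lung joins the effects of culture and 72 h of added age to that of the compound.

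The regulators of multiciliated cells were followed beside the axoneme genes. Foxj1, a forkhead factor of motile cilia, was at 0.09, 0.57 and 0.19 TPM in fresh lung, 1.79, 1.95 and 0.33 TPM in controls and 20.8, 6.72 and 34.3 TPM with EPZ5676. Deup1, which builds the many basal bodies, was at 1.26, 0.94 and 0.17 TPM in controls and 10.9, 6.39 and 32.4 TPM with EPZ5676. Both had the same order of treated libraries as most axoneme genes. Gmnc, which acts at the start of the program, was at 0.22, 0 and 0 TPM in fresh lung, 4.65, 3.37 and 1.46 TPM in controls and 7.06, 4.22 and 5.68 TPM with EPZ5676. Gmnc, Ccno and Mcidas were chosen for mention after their values were seen.

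Gmnc thus rose in control explants, by 6.09 ± 0.67 on the log2 scale (SE, edgeR adjusted p = 9.61e-05). In the same comparison Ccno rose (edgeR adjusted p = 0.011), Mcidas rose (adjusted p = 0.0277) and Trp73 rose (adjusted p = 0.0398). Mcidas was at 1.55, 2.16 and 0.09 TPM in controls and 0.10, 0 and 0.10 TPM in fresh lung, so Control 3 lay at the fresh level. Trp73 was at 0.53, 0.22 and 0.04 TPM in controls and at 0 TPM in fresh lung. Gmnc, Ccno, Mcidas and Trp73, 4 of the 9 tested regulators, were thus called higher in control explants (21.1% of all genes). There the low axoneme members summed to 72.0 TPM against 81.2 TPM in fresh lung. Between explant groups edgeR called 0 of the 9 regulators, and 6 passed the unadjusted threshold, all higher with EPZ5676 (4.14% of all genes). Regulators low without EPZ5676, such as Trp73, may have passed the filter only through EPZ5676 libraries, so these counts are given as a description.

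**Figure D4:**
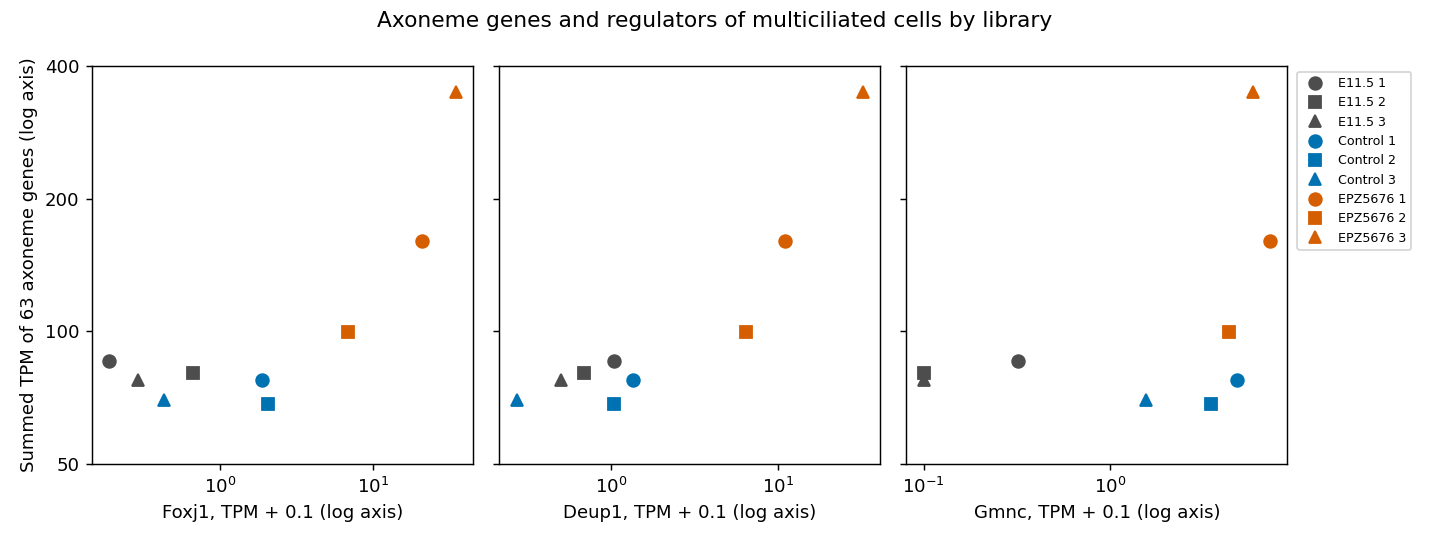
Summed TPM of the 63 low axoneme members (log axis) against the TPM + 0.1 of Foxj1, Deup1 and Gmnc (log axes), 1 point per library. The treated libraries are highest on both axes for Foxj1 and Deup1, whereas for Gmnc the controls lie far to the right of fresh lung at a similar axoneme sum.

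Other gene lists set these values in context. Of 56 axoneme genes with other names, such as the dynein docking and ruler genes, 28 were tested. Their median log2 fold change against control was 0.88, with 17 above at the unadjusted threshold (4.14% of all genes) and 0 below (2.8%). Some, such as Spag6l (0, 0.30 and 0 TPM in controls), passed the filter only through EPZ5676 libraries, so these counts are given as a description. Ccdc39, a ruler of the axoneme repeat, was at 4.07, 5.54 and 5.39 TPM in controls and 14.7, 10.6 and 24.2 TPM with EPZ5676. Of 30 genes of the primary cilium and intraflagellar transport, 30 were tested, with a median of 0.13, and 1 was higher at the unadjusted threshold (4.14% of all genes) and 0 lower (2.8%). Of 10 cytoplasmic dynein genes, 9 were tested, with a median of -0.01 and none at that threshold. The secretory airway markers, another cell type of the airway epithelium, summed to 29.7, 77.9 and 51.6 TPM in controls and 382, 215 and 625 TPM with EPZ5676, but most of that sum was 1 gene. Scgb3a2, a secretoglobin, was at 356, 172 and 579 TPM with EPZ5676, in the order of the axoneme genes. Muc16 was highest in EPZ5676 2, above 9.60 TPM in EPZ5676 1 and 6.22 TPM in EPZ5676 3, Cyp2f2 was at 13.2, 29.3 and 37.1 TPM, and Scgb1a1, Scgb3a1 and Bpifa1 were at 0 in all treated libraries. Their part in the result was not tested. The ependyma and choroid plexus markers summed to 28.4, 18.4 and 12.6 TPM in controls and 27.8, 17.6 and 22.5 TPM with EPZ5676.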

How the data were processed

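RNA-seq of 9 mouse lung libraries was analysed from 2 tables. Per the labels' protocols, RNA was extracted with TRIzol and 1 ug entered library construction. RSEM, Bowtie2 and mm10 are listed in the submitters' processing notes; versions and the strand setting are not given in the sources used here. The authors deposited expected counts (estimated counts, of which 12.5% to 15.3% per library were not whole) and TPM summing to 998977 to 999233 per library. Positions came from GENCODE M21 (GRCm38), to which all 72 members matched.

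Expected counts were rounded, filtered with filterByExpr (minimum count 10) and scaled by TMM. All 9 libraries entered 1 fit by group in edgeR 4.0.16 (robust quasi-likelihood, legacy method, R 4.3.3), two-sided, with Benjamini-Hochberg adjustment over 15158 genes and a threshold of 0.05. The SE was derived from the F statistic. DESeq2 1.42.0, limma 3.58.1 on log2(TPM + 1) and log2(TPM + 0.1), other filters and scaling, a replicate block and leaving out each library were alternatives, and edgeR's newer quasi-likelihood method was added after seeing the data. The tests were checked on simulated data. No 2 libraries of a group agreed within counting error (chi-square over degrees of freedom of 2.69 or more), so all were kept as separate samples. Depth limits genes of few counts. Floors (3 counts over a group) cover only the counting error of the group with no count. The spread and counting error of the EPZ5676 group are not included, so fold values against a floor are not lower bounds. Figures were drawn with matplotlib 3.10.9.

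The members, lists and named genes were chosen with earlier results of these data known. Named genes were those with the smallest p or highest level in a family, those separated between explant groups, paralogs of airway and sperm type, and fixed examples of each role; the text gives a selection.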

Additional observations from a re-analysis of the deposited data

How the results depend on the processing

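For EPZ5676 against control, edgeR called 0 members, DESeq2 9 and edgeR without a filter 11 of 71 (0.221% of all genes), with 4 genes shared between those 2. The latter were Cfap126, Cfap161, Cfap44, Cfap52, Dnah5, Dnah9, Dnali1, Drc1, Drc3, Drc7 and Rsph4a. Leaving out 1 library gave 0 to 10 calls higher and 0 lower. Each such fit applied the filter anew, so the members tested differed. Shares of all genes were not computed for most alternative fits, so their counts of calls here and below are a description. Without a filter the median log2 fold change was 1.95 over all members, 1.63 for Dnai with Dnal and 0.70 for Dnaaf. With 50 counts in 3 libraries it was 0.28 over 14 members and 0.31 for Cfap, since the low genes were then not tested. Limma on log2(TPM + 1) gave 1.33 for Drc. Leaving out 1 library gave 0.54 to 1.35 for all members, 0.33 to 1.46 for Dnah, 0.08 to 0.35 for Dnai with Dnal, 0.09 to 0.45 for Dnaaf, 0.85 to 1.95 for Cfap, 0.35 to 0.71 for Rsph, 0.54 to 1.28 for Tekt and 1.496 to 2.49 for Drc.

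For control against fresh lung, calls higher were 1 without a filter, with 50 counts, with limma on log2(TPM + 1) and with 6 libraries, and 0 to 2 leaving out 1 library. Calls lower were 1 with limma at either pseudocount and 1 to 3 leaving out 1 library. The median over all members was -0.22 with 50 counts, -0.082 and -0.14 with limma on log2(TPM + 1) and log2(TPM + 0.1), and -0.16 with 6 libraries. With 50 counts it was -0.82 for Dnah, -0.23 for Cfap, 0.23 for Rsph and -0.54 for Tekt. Without a filter it was 0.048 for Rsph, 0.73 for Tekt and -0.12 for Drc. Limma on log2(TPM + 0.1) gave -0.14 for Cfap and on log2(TPM + 1) 0.19 for Rsph, and 6 libraries gave -0.22 for Cfap and -0.13 for Drc. Leaving out 1 library gave -0.064 to 0.045 for all members, -0.33 to 0.074 for Dnah, -0.06 to 0.22 for Dnai with Dnal, -0.46 to -0.29 for Dnaaf, -0.06 to 0.05 for Cfap, 0.39 to 0.87 for Rsph, -0.09 to 0.25 for Tekt and 0.18 to 0.68 for Drc.

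For EPZ5676 against fresh lung, calls higher were 35 without a filter, 1 with 50 counts and 14 to 30 leaving out 1 library. Calls lower were 1 with RLE scaling, DESeq2, the newer edgeR method, no filter, the replicate block and 6 libraries, and 0 to 1 leaving out 1 library. Without a filter the median was 1.63 over all members, 1.63 for Dnai with Dnal and 0.38 for Dnaaf. With 50 counts it was 0.082 over all members, -0.46 for Dnah, 0.074 for Cfap and 0.50 for Rsph. Limma on log2(TPM + 1) gave 0.35 for all members, 0.20 for Dnah, 0.084 for Dnai with Dnal, 0.31 for Cfap and 1.38 for Drc, and on log2(TPM + 0.1) 0.087 for Dnai with Dnal and 0.31 for Cfap. Leaving out 1 library gave 0.46 to 1.19 for all members, 0.12 to 1.52 for Dnah, 0.25 to 0.32 for Dnai with Dnal, -0.16 to -0.00 for Dnaaf, 0.82 to 1.65 for Cfap, 0.81 to 1.44 for Rsph, 0.63 to 1.37 for Tekt and 1.89 to 2.89 for Drc.

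Log2 fold changes of EPZ5676 against control that changed sign were Dnah14 (0.72), Dnaaf2 (-0.004) and Dnal4 (-0.003) without Control 3, Dnal4 (-0.002) without EPZ5676 1, Dnah1 (-0.06) without Control 2, and Dnah1 (-0.10), Dnah8 (-0.41) and Rsph9 (-0.39) without EPZ5676 3; the cause was not tested. Over all fits without 1 library, Dnah14 ran from -1.07 to 0.72, Dnah8 from -0.41 to 2.97 and Dnal4 from -0.003 to 0.207. Same-numbered libraries did not pair throughout (correlations of -0.102 to 0.457). The highest, 0.457, was that of Control 1 with EPZ5676 1. Control 2 with EPZ5676 2 gave 0.079 and Control 3 with EPZ5676 3 gave -0.047. The replicate block left 0 members called between explant groups.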
